A study of Caenorhabditis elegans with 6 samples.

Results

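Classic DAF-16 target genes are longevity and stress genes known from earlier work to be driven by DAF-16, the FOXO transcription factor of Caenorhabditis elegans. The members were the 10 genes sod-3, ctl-1, ctl-2, nnt-1, mtl-1, ftn-1, lea-1, dod-3, dod-6 and scl-1, found by their WormBase symbols among the 46911 gene identifiers of the count tables. The rule uses no value of these libraries, but the genes were picked with earlier results of these data known. The study sequenced RNA of whole animals of 2 genotypes: nmr-2(ok3324), which carries a deletion allele of an NMDA-type glutamate receptor gene, and wild-type N2 animals (WT). There were 3 libraries per genotype, each from a population of animals fed on E. coli, synchronised by timed egg laying and described as L4, the last larval stage. No drug or second mutation is named for either group, so the single comparison was nmr-2(ok3324) against WT.

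DAF-16 lies at the end of the insulin-like signalling pathway. When the receptor DAF-2 is active, the kinases AGE-1, PDK-1 and AKT keep DAF-16 phosphorylated and in the cytoplasm; when signalling drops, as in dauer larvae, starvation or daf-2 mutants, DAF-16 enters nuclei of the intestine, epidermis and neurons and switches on genes for detoxifying enzymes, metal-binding proteins and protectants against drying. Transcripts such as sod-3 are used as reporters of its activity because they are low in well-fed larvae and strongly induced when DAF-16 is active, whereas others are also driven by other factors.

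Libraries held between 21234748 and 27893186 counts, and scaling factors by the TMM method stood apart from 1 in nmr-2(ok3324) replicate 2 (1.2) and WT replicate 2 (0.838). Levels are given as CPM, which are counts scaled to a library total of 1e+06 after this correction. In these libraries 3 counts corresponded to 0.106 to 0.146 CPM. The mutated gene nmr-2 had 3, 5 and 5 counts in the mutant and 7, 2 and 10 in WT (ratio 0.616, 95% exact interval 0.280 to 1.31, counting error only), so its level does not check the labels. Nothing in the labels says that libraries of 1 genotype came from separate cultures, and the p-values therefore reflect only how these libraries scatter, and part or all of that scatter may be technical. RNA came from whole animals, in which fewer cells of a type and less RNA per cell cannot be told apart.

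None of the 10 members passed the test at an adjusted p of 0.05 (edgeR's quasi-likelihood test with Benjamini-Hochberg adjustment over 13140 genes). Of all tested genes 2.14% passed, 231 higher and 50 lower in the mutant. Among the members 5 had a log2 fold change above 0 and 5 below. This split includes scl-1 above 0, on 1 count in all, and mtl-1 below 0, on 6 against 9 counts. An unadjusted p under 0.05 was reached by 2 members, lea-1 and nnt-1, a share close to the 17.4% of all tested genes. The same pair were the members whose mutant and WT libraries did not overlap in CPM, which held for 24.2% of all tested genes. DESeq2 called 1 member, lea-1, and limma-voom called 0. All 10 had at least 1 count, and 8 passed the filter on low counts. The members mtl-1 and scl-1 lay below it and were kept in the fit by the design. Among the 8, the middle log2 fold changes were those of ctl-2 (-0.02) and sod-3 (0.23), so their median turns on 1 gene. It falls to -0.02 if nnt-1 is left out and rises to 0.23 if ftn-1 is left out. The 8 had a median log2 fold change of 0.11, beside 0.02 over all tested genes. Leaving out WT replicate 2 gave 0.04, leaving out WT replicate 1 gave 0.17, and leaving out nmr-2(ok3324) replicate 3 gave 0.06. A minimum of 1 CPM in 3 libraries took ftn-1 out of the fit. The median of the rest was then 0.25, the value of sod-3 in that fit, so this shift reflects a changed set of genes.

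**Figure D1:**
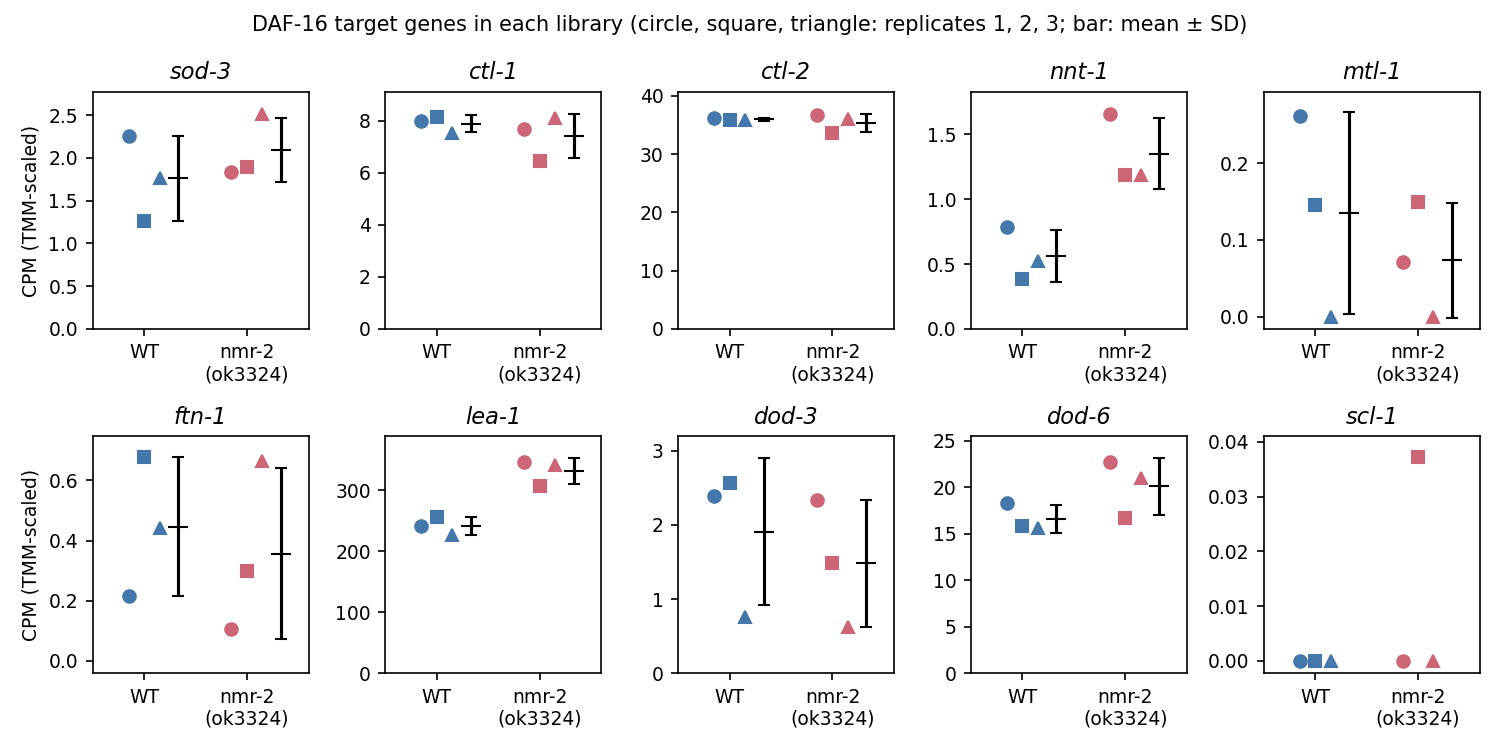
CPM of each member in the 3 WT libraries (blue) and the 3 nmr-2(ok3324) libraries (red), with the mean ± SD at the side of each group except for scl-1. The groups are apart for lea-1 and nnt-1 and overlap for the other members, and the lowest dod-3 values are replicate 3 of each genotype.

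The first members are enzymes against reactive oxygen. sod-3 (WBGene00004932, chromosome X, 17092753 to 17094306 in WBcel235) encodes an inducible manganese superoxide dismutase of mitochondria. Its level was 1.84, 1.90 and 2.52 CPM over nmr-2(ok3324) replicates 1 to 3, against 2.26, 1.26 and 1.76 CPM over the WT replicates, from 156 and 122 counts in all. The groups overlapped, and the lowest library was WT replicate 2. The log2 fold change was 0.23 (SE 0.31, 95% interval -0.43 to 0.89, edgeR adjusted p = 0.71), so that a rise above 1.85-fold lies outside the interval. The other superoxide dismutase genes did not pass either. In CPM per kilobase of exon, sod-3 stood at 2.00 ± 0.566 in WT (SD, n = 3), far under sod-1, the main cytosolic enzyme, at 237 ± 22.4, and sod-2, the other mitochondrial enzyme, at 153 ± 17.3. sod-4, an extracellular form, stood at 4.25 ± 0.642. sod-3 thus made up 0.512% ± 0.169 of the summed level per length of the 5 genes in WT and 0.671% ± 0.0950 in the mutant. The log2 fold changes were -0.14 (SE 0.13) for sod-1, -0.21 (SE 0.13) for sod-2 and -0.08 (SE 0.24) for sod-4. sod-5, a cytosolic form known for its rise in dauer larvae, was left out of the test, with 3, 1 and 1 counts in the mutant against 2, 9 and 2 in WT.

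The catalase genes break down hydrogen peroxide and lie in a row on the minus strand of chromosome II, ctl-2 at 14299556 to 14302027, ctl-1 at 14303568 to 14306260 and ctl-3 at 14307798 to 14310779, with gaps of 1540 and 1537 bases. ctl-1 encodes the cytosolic catalase. It had 7.67, 6.45 and 8.12 CPM in the mutant libraries and 7.99, 8.15 and 7.54 CPM in WT. The highest WT library was above all mutant libraries by less than the spread, and the log2 fold change was -0.09 (SE 0.17, 95% interval -0.46 to 0.28, edgeR adjusted p = 0.81). ctl-2 encodes the peroxisomal catalase and was the steadiest member, at 36.7, 33.7 and 36.0 CPM in the mutant and 36.2, 35.9 and 35.8 CPM in WT. Its log2 fold change of -0.02 (SE 0.10) had a 95% interval of -0.24 to 0.20, or 0.844-fold to 1.15-fold, the narrowest among the members. ctl-2 supplied 71.9% ± 2.15 of the catalase level per length in WT and 74.2% ± 2.43 in the mutant, and ctl-1 16.3% ± 0.278 and 16% ± 0.784. ctl-3, which is not a member, had a log2 fold change of -0.32 (SE 0.23). The signs of ctl-1 and ctl-2 turned with library totals alone in place of TMM factors and without both libraries numbered 2. These genes are alike in sequence, and how reads that match several of them were counted is not given in the sources used here.

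nnt-1 (chromosome X, 6122311 to 6127554) encodes the mitochondrial nicotinamide nucleotide transhydrogenase, which makes NADPH for the enzymes that remove peroxides. The mutant libraries held 47, 32 and 25 counts of it and the WT libraries 18, 8 and 13, or 1.66, 1.19 and 1.19 CPM against 0.782, 0.388 and 0.521 CPM. Every mutant library was above every WT library. The log2 fold change was 1.25 (SE 0.42, 95% interval 0.35 to 2.15), and the gene did not pass (edgeR adjusted p = 0.16). Summed over libraries, 104 against 39 counts amount to 2.40-fold (exact 95% interval 1.65 to 3.56), which covers counting error only and leaves out the spread between libraries. It stayed above 0 in each of 15 alternative settings, between 1.05 and 1.55, and passed in 0 of them. The exons of nnt-1 share 27 bases with C15H9.9 on the other strand, which is far more abundant. That gene had 89.1 ± 14.9 CPM in the mutant and 95.4 ± 3.40 in WT (log2 fold change -0.10, SE 0.12). Whether reads of that gene entered the nnt-1 counts was not tested. A list of 7 further genes of NADPH supply had a median log2 fold change of -0.14. None of the 7 passed by edgeR, by DESeq2 or by limma-voom, 0 reached an unadjusted p of 0.05, and gspd-1, the glucose-6-phosphate dehydrogenase gene, came nearest (log2 fold change 0.23, SE 0.12).

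The metal-binding members were near the limit of detection. mtl-1 (chromosome V, 6691371 to 6691863) encodes a metallothionein, a small protein that holds zinc and cadmium. Its counts were 2, 4 and 0 in the mutant against 6, 3 and 0 in WT. Summed, 6 against 9 counts amount to 0.600-fold (exact 95% interval 0.176 to 1.89, counting error only), and a difference was not detectable at this depth. Its paralog mtl-2, the intestinal metallothionein, was abundant in the same libraries, at 43.4, 38.4 and 35.1 CPM in the mutant and 48.6, 49.6 and 46.6 in WT. These groups did not overlap, but the log2 fold change of -0.31 (SE 0.11) did not pass (edgeR adjusted p = 0.19). Per length mtl-1 made up 0.256% ± 0.249 of the level of the metallothionein genes in WT and 0.170% ± 0.181 in the mutant. ftn-1 (chromosome V, 7546468 to 7547579) encodes a ferritin heavy chain of the intestine that stores iron and whose transcript falls when iron is short. Its counts were 3, 8 and 14 in the mutant against 5, 14 and 11 in WT, with a log2 fold change of -0.37 (SE 0.69, 95% interval -1.83 to 1.1). Replicate 1 was the lowest library of each genotype, and the spread of 6.40-fold between the highest and the lowest library exceeded the fitted difference between the genotypes. ftn-2, the other ferritin gene, held 99.6% ± 0.179 of the ferritin level per length in WT and had a log2 fold change of -0.06 (SE 0.10). Over the 6 tested paralogs of the members all log2 fold changes were below 0, with a median of -0.17. edgeR, DESeq2 and limma-voom called 0 of these 6, and mtl-2 alone had an unadjusted p under 0.05. With library totals alone that median stood at -0.20 relative to all genes, and sod-1, sod-4 and ftn-2 lay above 0. Without both libraries numbered 2 the median was -0.10, and sod-1 lay above 0.

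Of 26 identified genes of metal and iron handling 24 were tested. Their median log2 fold change was -0.11. edgeR, DESeq2 and limma-voom called 0 of them, while 2 reached an unadjusted p of 0.05. First by p came cdf-1, a zinc exporter gene, with 13.9 ± 1.83 CPM in WT and 19.2 ± 2.48 in the mutant libraries (log2 fold change 0.46, SE 0.15; edgeR adjusted p = 0.14). The list of superoxide and peroxide defence, which holds the paralogs of sod-3 and the peroxiredoxin, thioredoxin and glutathione peroxidase genes, likewise had 0 calls among 20 tested by the 3 tools and 2 at an unadjusted p under 0.05, with a median of -0.10. There the smallest p was that of prdx-6, a peroxiredoxin gene (log2 fold change -0.39, SE 0.16).

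lea-1 was the most abundant member and the nearest to the threshold. It encodes a late embryogenesis abundant protein, one of a class named in plant seeds that protects cells as they dry. The gene (WBGene00002263, chromosome V, 10011923 to 10028168, plus strand) lies 4.98 Mb from nmr-2 on the same chromosome. ftn-1, mtl-1 and dod-3 lie there too, at 7.46, 8.31 and 12.28 Mb from nmr-2, and the paralog mtl-2 is nearer, at 0.99 Mb. lea-1 had 346, 307 and 341 CPM in the mutant libraries and 241, 256 and 226 CPM in WT, from 25222 and 16447 counts in all. The lowest mutant library was above the highest WT library. The difference of 1.38-fold (log2 fold change 0.46, SE 0.12, 95% interval 0.21 to 0.71) had an edgeR adjusted p of 0.053. The fold change lay between 0.42 and 0.64 under 15 alternative settings, of which 7 passed the threshold, with adjusted p-values from 1e-07 to 0.36 over all 15. It passed with DESeq2, library totals alone, no filter on low counts, a minimum of 1 CPM in 3 libraries, without nmr-2(ok3324) replicate 2 (0.51), without both libraries numbered 2 (0.57), and when the members were not kept below the filter, which took 2 of them out of the fit and gave an adjusted p of 0.0499. Library totals alone moved the median of all genes to 0.20, so that the 0.64 of lea-1 there was 0.44 relative to it. The gene that shares 19 exon bases with lea-1, acl-2, had a log2 fold change of -0.19 (SE 0.12). The non-coding genes annotated within the introns of lea-1 had no count. Of 9 other genes of dauer larvae and desiccation 4 were tested, with a median of 0.13. edgeR, DESeq2 and limma-voom called 0 of the 4, and none reached an unadjusted p of 0.05. Among these tps-1 and tps-2, the trehalose synthase genes, had log2 fold changes of 0.30 (SE 0.20) and 0.03.

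**Figure D2:**
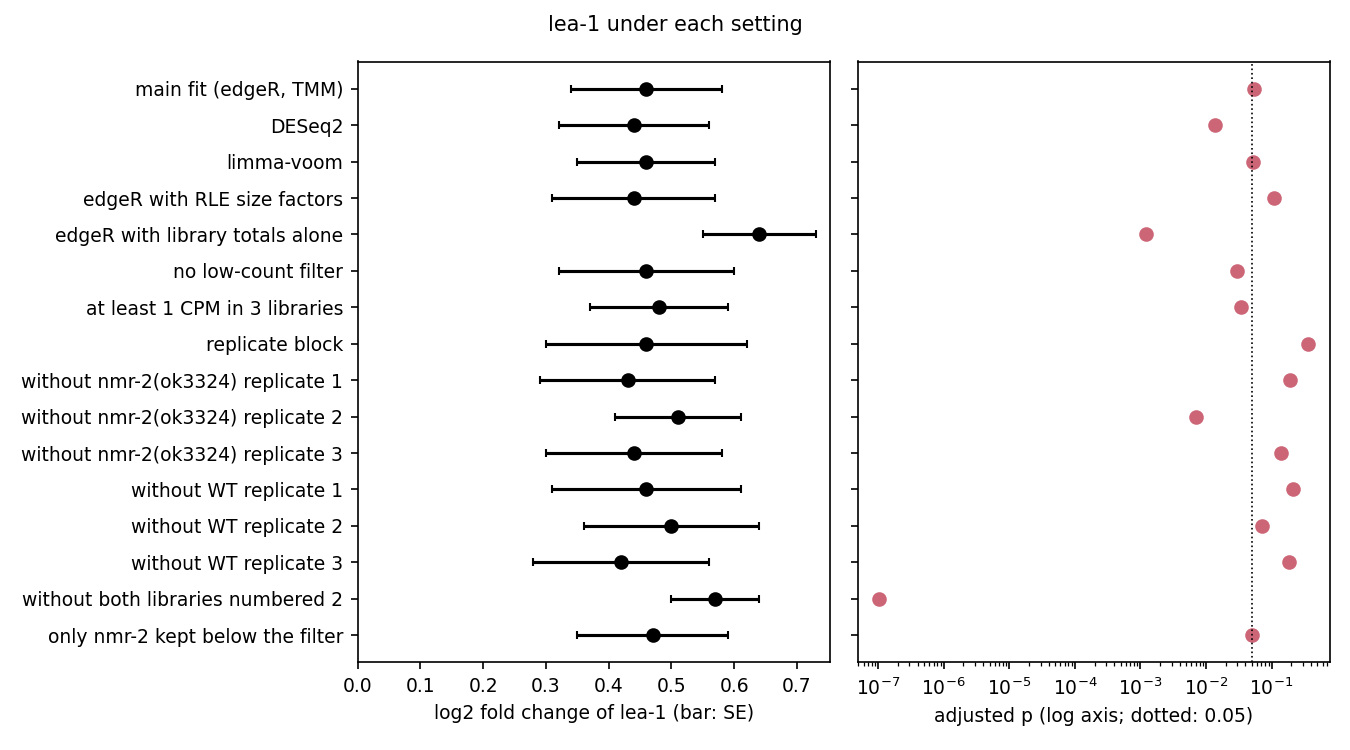
Log2 fold change of lea-1 with its SE (left) and its adjusted p on a log axis (right) in the main fit and 15 alternatives, with 0.05 as a dotted line. The fold change keeps to 0.42 to 0.64, and 7 of the 15 alternatives lie left of the line.

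dod-3 and dod-6 were named as genes downstream of DAF-16, and the function of their products is less known. dod-6 (chromosome III, 10197716 to 10198352) had 22.7, 16.7 and 21 CPM in the mutant and 18.3, 15.8 and 15.6 CPM in WT. The groups overlapped through nmr-2(ok3324) replicate 2, and the log2 fold change of 0.28 (SE 0.14, 95% interval -0.03 to 0.59) did not pass (edgeR adjusted p = 0.32). dod-3 (chromosome V, 2730622 to 2731098) varied more between replicates than between genotypes. Its counts were 66, 40 and 13 in the mutant against 55, 53 and 19 in WT, so that replicate 3 was the lowest in each genotype, and the highest library exceeded the lowest 4.17-fold in CPM. Its log2 fold change was -0.33 (SE 0.47). The biological coefficient of variation that edgeR assigned to it was 37.3%, against 12.4% for dod-6, 10.3% for lea-1, 9.39% for ctl-2 and a median of 14.8% over tested genes. scl-1 (chromosome IV, 13056326 to 13057351), which encodes a secreted protein of the SCP family needed for the long life of daf-2 mutants, had 1 count in nmr-2(ok3324) replicate 2 and 0 in each other library, too few for a fold change. Of the other genes of its family and 3 relatives, 26 were identified, 12 of them without a count, and 8 were tested, with a median of -0.24 that became -0.06 without WT replicate 1 and -0.13 without nmr-2(ok3324) replicate 2. edgeR and limma-voom called 0 of the 8 and DESeq2 called 1. An unadjusted p under 0.05 was found for scl-2, with 8.71 ± 0.818 CPM in WT and 5.62 ± 0.721 in the mutant libraries (log2 fold change -0.63, SE 0.18; edgeR adjusted p = 0.10).

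**Figure D3:**
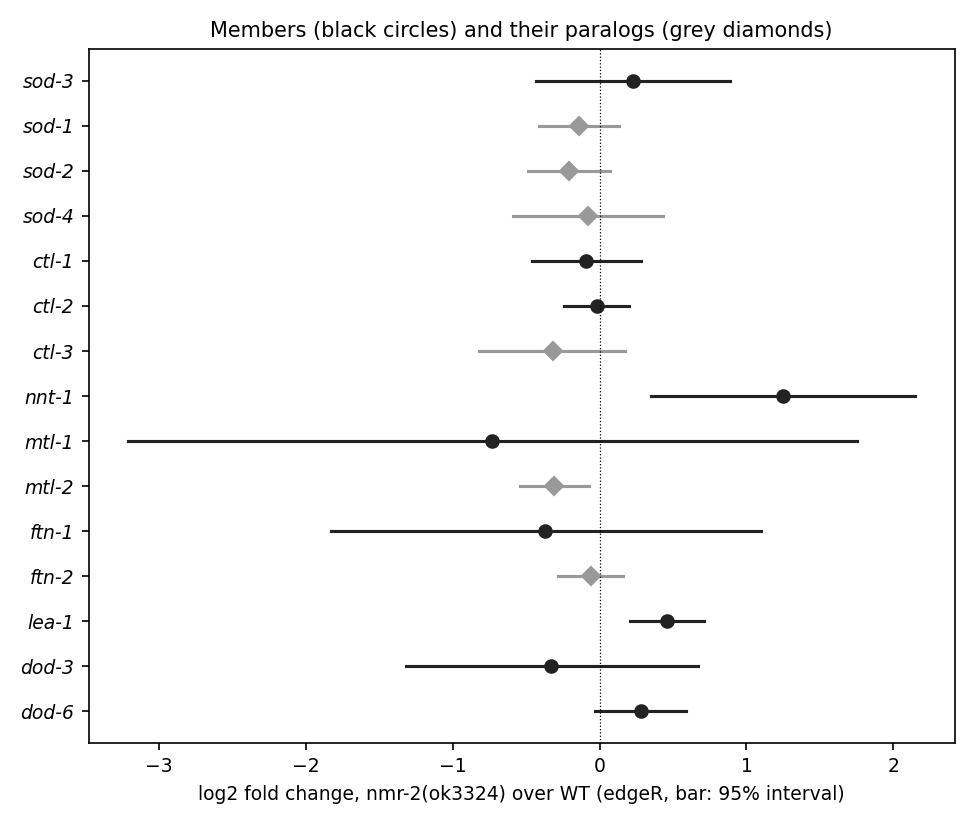
Log2 fold changes of 9 members (black) and 6 tested paralogs (grey) with 95% intervals from edgeR; scl-1 is left out. The intervals of lea-1 and nnt-1 lie above 0 and that of mtl-2 below it, and the interval of mtl-1 is the widest.

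Per kilobase of exon the members covered more than 2 orders of magnitude. lea-1 was highest, at 49.9 ± 3.07 CPM per kilobase in WT and 68.6 ± 4.40 in the mutant (SD, n = 3 each). It was followed by dod-6 (28.5 ± 2.57 and 34.6 ± 5.31) and ctl-2 (22.3 ± 0.145 and 22 ± 0.982), and none of these neighbours overlapped in any library. ctl-1 came next, at 5.08 ± 0.203 and 4.77 ± 0.555. dod-3 (4.54 ± 2.37 and 3.52 ± 2.04) overlapped both ctl-1 above it and sod-3 below it, so their order is not fixed. Below sod-3 came ftn-1 (0.736 ± 0.381 and 0.588 ± 0.468), nnt-1 (0.174 ± 0.0618 and 0.416 ± 0.0840), mtl-1 (0.363 ± 0.350 and 0.196 ± 0.200) and scl-1, each overlapping its neighbour from ftn-1 down. This order follows the mean over all 6 libraries, and in WT alone mtl-1 stood above nnt-1.

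**Figure D4:**
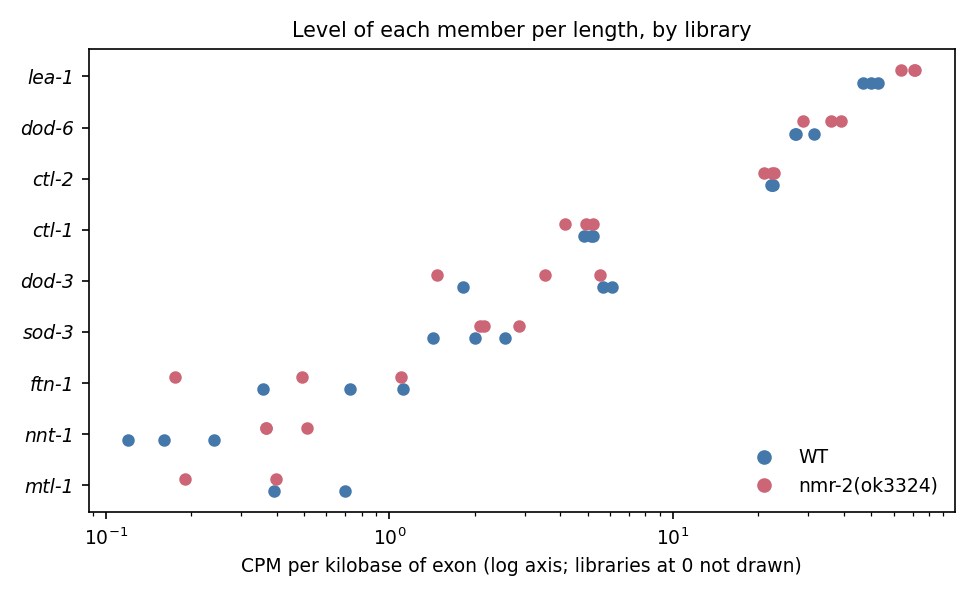
Level of 9 members in CPM per kilobase of exon (log axis) in each WT (blue) and nmr-2(ok3324) (red) library; libraries at 0 are not drawn and scl-1 is left out. lea-1, dod-6 and ctl-2 stand above the rest without overlap, from 20.9 to 71.6 CPM per kilobase.

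The genes that control DAF-16 did not pass. Of 31 genes of the insulin receptor pathway and other DAF-16 regulators 27 were tested, with a median of 0.05, and 2 had no count in any library. edgeR, DESeq2 and limma-voom called 0 of the 27, and an unadjusted p under 0.05 was found for 1. daf-16 itself had 105, 123 and 122 CPM in the mutant and 100, 105 and 102 in WT, groups that touched at 105 CPM (log2 fold change 0.18, SE 0.10, edgeR adjusted p = 0.36). daf-2, the receptor gene, had 59.8, 70.6 and 61.8 CPM against 53.5, 55.9 and 55.6, groups that did not overlap, with a log2 fold change of 0.22 (SE 0.10, edgeR adjusted p = 0.29). pqm-1, whose product acts on many of the same promoters and leaves the nucleus when DAF-16 enters it, had a log2 fold change of -0.05 (SE 0.18).

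Further genes that rise when DAF-16 is active moved in both directions. Of 34 named, 30 were identified and 24 tested: 1 rose and 2 fell, 7 reached an unadjusted p of 0.05, and the median was 0.01. gst-4, a glutathione S-transferase gene also driven by SKN-1, rose from 13.7 ± 1.93 to 32.6 ± 1.58 CPM, a log2 fold change of 1.25 (SE 0.13) with an edgeR adjusted p of 2.6e-05. fat-5, a palmitoyl-CoA desaturase gene, fell from 14 ± 0.0641 to 5.48 ± 0.881 CPM (-1.36, SE 0.17). thn-2, a thaumatin-like gene of pathogen defence, fell from 21.9 ± 7.68 to 12.2 ± 1.98 CPM (-0.85, SE 0.21, edgeR adjusted p = 0.046). That call was lost in 11 of 15 alternatives, among them each fit without 1 library other than WT replicate 3, and WT replicate 2 held the highest value, 30.6 CPM; leaving that library out gave -0.53 with an adjusted p of 0.18. The calls of gst-4 and fat-5 held in all 15.

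Genes known to be lowered when DAF-16 is active also moved both ways. Of 15, 12 were tested, of which 1 rose, 2 fell and 7 reached an unadjusted p of 0.05, with a median of -0.02. Over all tested genes 2.14% passed and 17.4% reached that p, shares that this list and the list of raised genes exceeded. Both lists were chosen with earlier results of these data known. dod-24, an immune-related gene of the intestine, had 50.3, 53.3 and 47.9 CPM in the mutant and 25.9, 19.6 and 23.1 in WT, a rise of 2.21-fold (log2 fold change 1.14, SE 0.12, edgeR adjusted p = 2.6e-05). dod-19 fell from 72.6 ± 11.9 to 44.5 ± 5.96 CPM (-0.70, SE 0.13) and dod-22 from 1.54 ± 0.522 to 0.367 ± 0.105 CPM (-2.05, SE 0.46). The call of dod-22 was lost in 6 of 15 alternatives, among them without nmr-2(ok3324) replicate 1 (-1.88) or replicate 3 (-1.99) and without WT replicate 1 (-1.77). That of dod-19 was lost in 2 of 15, with library totals alone (-0.52, SE 0.12) and with the replicate block (-0.70, SE 0.16). By name, 8 of 22 other dod genes were identified and 6 tested, with a median of -0.03, and the calls among them were these same 3 genes. The other 3 tested, dod-17, dod-18 and dod-23, did not pass and had log2 fold changes of 0.30, 0.45 and -0.35.

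**Figure D5:**
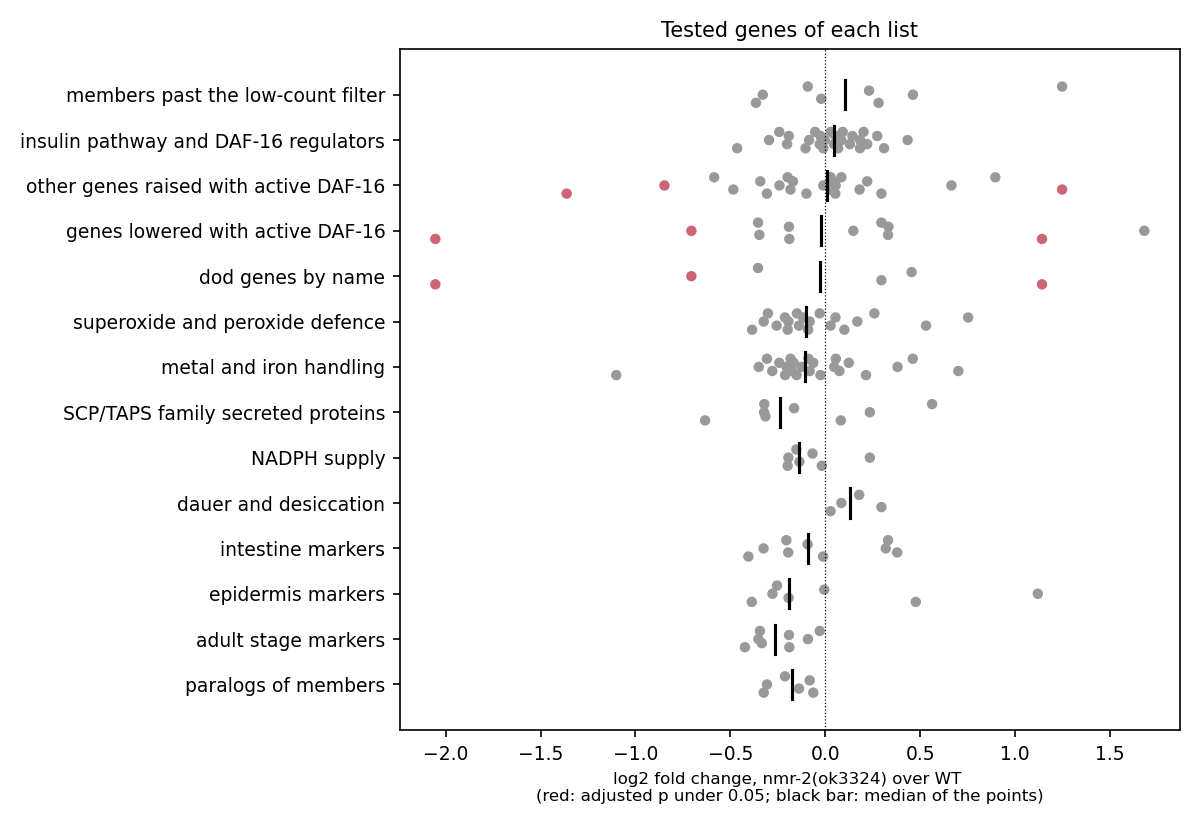
Log2 fold change of each tested gene by list, with genes past an adjusted p of 0.05 in red and the median of each list as a black bar; of the members, the 8 past the low-count filter are drawn. List medians lie between -0.26 and 0.13, and the called genes lie on both sides of 0.

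Markers of tissue and stage bear on levels in whole animals. The intestine, where many members are expressed, had 9 identified markers, all tested, with a median of -0.09 that became 0.04 without WT replicate 2. edgeR, DESeq2 and limma-voom called 0 of the 9 and 3 reached an unadjusted p of 0.05. Lowest in p was ges-1, a gut esterase gene, with 17.4, 14.5 and 16.7 CPM in the mutant against 20.6, 21 and 19.3 in WT (log2 fold change -0.32, SE 0.13). The other two lay above 0, nhx-2, a sodium/proton exchanger gene, at 0.38 (SE 0.18) and pept-1, a peptide transporter gene, at 0.33 (SE 0.15). The summed level of the 9 intestine markers was 2730 to 3930 CPM in the mutant and 3290 to 4830 CPM in WT. Most of it came from asp-1, at 1500 to 2460 CPM in the mutant and 1950 to 3190 CPM in WT. Of 8 epidermis markers 7 were tested, with a median of -0.19 and sums of 135 to 160 CPM in the mutant and 151 to 168 CPM in WT. edgeR and limma-voom called 0 of the 7 and DESeq2 called 1. The cuticle collagen gene rol-6 had the only unadjusted p under 0.05 (log2 fold change 1.12, SE 0.30; edgeR adjusted p = 0.074). The 8 adult stage markers were all far above the median of 10.6 CPM over tested genes in each library, although the animals were labelled L4. col-19, an adult collagen gene, averaged 2110 ± 283 CPM over WT and 2070 ± 307 over mutant libraries. The summed level was 52300 to 65000 CPM in the mutant and 65900 to 69400 in WT. Whether the animals were still L4 was not tested, so the levels given here are not shown to be L4 levels. edgeR and limma-voom called 0 of the 8 and DESeq2 called 3; 1 had an unadjusted p under 0.05, the yolk protein gene vit-4 (-0.42, SE 0.18). All 8 had negative fold changes, with a median of -0.26, which with library totals alone was -0.09, or -0.29 relative to all genes. None of the markers was at 0 in all libraries, and their part in the members' values was not tested.

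When 8005 genes averaging 5 CPM or more were compared, the log2 CPM of dao-3 and dus-2 over the 6 libraries was most like that of sod-3, with a Pearson r of 0.978 for each. Of the 8005 genes, 9 reached an r of at least 0.95. dao-3, named for its level in dauer larvae and ageing adults, had 16.5 ± 1.21 CPM in the mutant and 15.5 ± 2.84 in WT. For both genes nmr-2(ok3324) replicate 3 and WT replicate 1 were the upper pair of libraries and WT replicate 2 the lowest. With 6 libraries and 26 to 53 sod-3 counts in each, this is a description only.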

How the data were processed

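Whole-animal RNA of nmr-2(ok3324) and WT, 3 libraries each, was measured by RNA-seq. The authors deposited raw whole-number counts for each gene. Per the submitters' processing notes, HTSeq and DESeq2 were used. For aligner, build, annotation and strand setting the entry is not given in the sources used here. How reads on the bases that overlapping genes share were assigned is therefore not known. Symbols came from a table that matched 44059 of 46911 identifiers, and coordinates and exon lengths from Ensembl release 115 (WBcel235).

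In R 4.3.3, edgeR 4.0.16 was run on genes kept by filterByExpr, with the members and nmr-2 kept in any case (13140). It used TMM factors and a robust quasi-likelihood fit without a block, and was tested on simulated counts. There it called 39.7% of 63 genes changed 1.5-fold, 70.3% of 64 changed 2-fold and 93.8% of 64 changed 4-fold, with 13 false among 143 calls. A gene that did not pass can therefore still differ. The changed genes were drawn at random over all levels, so these shares need not hold for members with few counts. SE is the absolute log2 fold change over the square root of F; 95% intervals use its total degrees of freedom. CPM per kilobase uses the union of exons. Alternatives were DESeq2 1.42.0, limma-voom (limma 3.58.1), other scalings and filters, a replicate block and left-out libraries. Same-numbered libraries did not deviate together (r of 0.001, -0.277 and -0.101).

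The members and 13 lists were chosen with earlier results of these data known. Named genes were the members, their paralogs, nmr-2, daf-16, daf-2, pqm-1, up to 4 called genes per list (or that with the smallest p) and the 2 genes most like sod-3. The gene that this rule names in the list of DAF-16 regulators is not reported here. The genes tps-2, col-19, nhx-2, pept-1, asp-1, dod-17, dod-18, dod-23 and lea-1's and nnt-1's neighbours were named outside that rule, after their values were seen. Figures used matplotlib 3.10.9.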

Additional observations from a re-analysis of the deposited data

How the results depend on the processing

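The 231 higher and 50 lower calls became 441 and 155 without the low-count filter, 347 and 188 without both libraries numbered 2, and 123 and 18 with the replicate block; the lower calls became 105 with DESeq2 and 16 with library totals alone. Leaving out 1 library gave 151 (without WT replicate 3) to 227 higher and 30 (without WT replicate 1) to 52 lower. Members called higher, 0 in the main test, were 1, always lea-1, with DESeq2, library totals alone, no low-count filter, 1 CPM in 3 libraries, without both libraries numbered 2, and, chosen after seeing the data, with only nmr-2 kept below the filter; leaving out 1 library gave 0 to 1 (without nmr-2(ok3324) replicate 2). Members called lower were 0 throughout. With the replicate block lea-1 was at 0.46 with an adjusted p of 0.36.

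Signs turned for some log2 fold changes, none of them called. With library totals alone the values were 0.08 for ctl-1, 0.16 for ctl-2, 0.13 for ftn-2, 0.14 for pqm-1, 0.04 for sod-1 and 0.11 for sod-4. Without both libraries numbered 2 they were 0.03 for ctl-1, 0.02 for ctl-2, -0.01 for dao-3, 0.14 for ftn-1, 0.07 for sod-1, 0.00 for sod-2 and -0.07 for tps-1. Leaving out 1 library gave ranges of -0.16 to 0.00 for ctl-1, -0.04 to 0.02 for ctl-2, -0.04 to 0.23 for dao-3, -0.81 to 0.02 for dod-3, -0.01 to 0.13 for dus-2, -1.12 to 0.10 for ftn-1, -1.62 to 0.19 for mtl-1, -0.18 to 0.07 for pqm-1 and -0.30 to 0.14 for sod-4. Beyond library totals, for which the median of all genes moved to 0.20, the cause was not tested. Low counts limit what can be seen of mtl-1, ftn-1 and scl-1. Leaving out 1 library moved several list medians by over 1.5 times, all within -0.32 to 0.23: those of the DAF-16 regulators (-0.02 to 0.07), genes raised (-0.10 to -0.01) and lowered (-0.06 to 0.02) with active DAF-16, dod genes (-0.12 to 0.00), peroxide defence (-0.15 to -0.05), metal handling (-0.14 to -0.05), dauer genes (0.04 to 0.23), intestine (-0.17 to 0.04), epidermis (-0.21 to -0.01) and adult markers (-0.32 to -0.17). Without both libraries numbered 2 the medians of peroxide defence (0.02), dauer genes (-0.03) and intestine (0.04) turned sign. Those of NADPH supply and adult markers then stood at -0.03 and -0.11. The search of promoters for DAF-16 motifs was not run.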
